A study of Mus musculus with 2 samples.

Results

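The cyclic nucleotide-gated (CNG) channel subunits of photoreceptors are Cnga1, Cngb1, Cnga3 and Cngb3, 4 of the 32227 genes in the deposited gene table, and they were chosen by gene name. They were singled out because of values measured in these libraries, so the differences between genotypes below are descriptions and carry no test. The measurements are single-nucleus RNA-seq counts from whole retinas of C57 BL/6J mice at postnatal day 21, with 1 Cre- library of 7357 nuclei and 1 Tet tcKO library of 6766 nuclei. Tet tcKO animals carried floxed Tet1, Tet2 and Tet3 on both alleles together with a Chx10-Cre-GFP transgene that is active in retinal progenitor cells and was bred to 2 copies to limit mosaic expression. Cre- animals, labelled WT, were age-matched and came from breeders without the transgene. Per the study's methods, nuclei of each genotype came from 2 dissociation pools of at least 2 animals each, and the tables do not tell the pools apart.

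CNG channels let sodium and calcium ions into the photoreceptor outer segment while cyclic GMP is bound to them. Light activates transducin and then phosphodiesterase, cyclic GMP is hydrolysed, the channels close and the cell hyperpolarises. Rods build the channel from Cnga1 and Cngb1, and cones build it from Cnga3 and Cngb3. In each channel the A subunit can form the pore on its own and the B subunit modifies gating, and loss of the cone subunits is known as a cause of achromatopsia. In mammals Cngb1 also encodes glutamic-acid-rich proteins of the rod outer segment, and counts per gene do not separate these products.

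Counts were unique molecular identifiers (UMIs). The Cre- library held 11510585 UMIs with a median of 1107 per nucleus, and the Tet tcKO library held 16590747 with a median of 1836.5. Only 1 barcode was found in both. The 13 mitochondrial genes took 5.47% of UMIs in Cre- and 1.76% in Tet tcKO. The targeted genes were not depleted in the library labelled Tet tcKO: Tet1 was at 50.2 counts per 1000000 UMIs (CPM) in Cre- and at 61.2 in Tet tcKO, Tet2 had 104.8 and 139.4, and Tet3 had 180.4 and 173.8. Counts of whole genes from a 3′ kit do not separate the floxed exons, so these values check neither label, and Cre- and Tet tcKO are used here as the names on the libraries.

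In the GENCODE annotation of GRCm39, the build to which the submitters aligned, the 4 members lie on different chromosomes. Cnga1 spans chr5:72761039-72801618 on the minus strand with 9 exons in its canonical transcript, and Cngb1 spans chr8:95965672-96033213 on the minus strand with 33. Cnga3 spans chr1:37253515-37304128 on the plus strand with 7 exons. Cngb3 is the longest, at chr4:19280850-19510623 on the plus strand, with 18 exons that cover 2.05% of its 229774 bases, so nearly all of the gene is intron. Nuclear libraries contain unspliced RNA, and what share of these counts is intronic was not stated by the sources read here. No other gene of the deposited table overlapped a member.

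Promoter sequences are printed, as a description of the bases near the gene starts, for the members with an entry in the RefSeq promoter table (GRCm38.p6, 250 bases before to 50 after the gene start). 3 of the 4 members had an entry, and Cngb3 had none. The cone pair is therefore shown by Cnga3 alone, and the windows do not compare the rod pair with the cone pair. Capitals mark matches to TAATCC on either strand, the core bound by photoreceptor homeodomain factors. The Cnga1 window is chr5:72642703-72643002 (minus strand), the Cngb1 window chr8:95306536-95306835 (minus strand), and the first of the Cnga3 windows chr1:37218028-37218327 (plus strand), each written 5′ to 3′ in the direction of the gene.
Cnga1: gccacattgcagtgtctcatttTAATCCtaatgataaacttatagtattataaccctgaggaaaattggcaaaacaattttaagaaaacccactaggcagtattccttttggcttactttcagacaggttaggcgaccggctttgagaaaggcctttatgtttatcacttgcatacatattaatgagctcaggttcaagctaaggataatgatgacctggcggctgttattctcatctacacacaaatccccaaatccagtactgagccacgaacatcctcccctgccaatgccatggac
Cngb1: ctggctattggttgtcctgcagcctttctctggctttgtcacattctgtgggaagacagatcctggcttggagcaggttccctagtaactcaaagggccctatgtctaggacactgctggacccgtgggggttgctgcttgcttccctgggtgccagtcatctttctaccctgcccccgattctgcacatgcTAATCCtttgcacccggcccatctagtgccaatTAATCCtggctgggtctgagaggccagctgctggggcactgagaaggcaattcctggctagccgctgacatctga
Cnga3: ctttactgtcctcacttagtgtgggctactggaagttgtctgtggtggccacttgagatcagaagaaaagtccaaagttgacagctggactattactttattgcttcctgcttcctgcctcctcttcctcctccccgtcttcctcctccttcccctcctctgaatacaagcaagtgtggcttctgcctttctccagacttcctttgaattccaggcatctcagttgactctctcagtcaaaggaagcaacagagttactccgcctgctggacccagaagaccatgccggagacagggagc
The Cnga1 window held 1 match, which starts 228 bases before the gene start, and the Cngb1 window held 2, at 58 and 25 bases before it. Neither Cnga3 window held a match. Of all 32851 windows in the table, 7.06% held TAATCC. The 6 letters TGCTGA, part of the site of Maf-family factors, occurred in 19.5% of all windows and in none of the members' windows. The Cnga1 and Cngb1 windows held 4 CG dinucleotides each and the Cnga3 windows 3 and 2, against a median of 7 over all windows. A match is a description of letters and says nothing about binding.

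Cnga1, the pore-forming rod subunit, was counted 8604 times in Cre- against 2842 times in Tet tcKO over all nuclei. Its level was 747.5 CPM (95% interval 731.8 to 763.4) in Cre- and 171.3 CPM (165.1 to 177.7) in Tet tcKO. The log2 ratio of Tet tcKO over Cre- was -2.13 (-2.19 to -2.06), and it was -1.54 where each gene was counted once per nucleus. These intervals and all others below cover counting error only, since there was 1 library of each genotype and no measure of the spread between animals. Cngb1, the modulatory rod subunit, had 276.4 CPM (266.9 to 286.2) in Cre- and 110.3 CPM (105.3 to 115.5) in Tet tcKO, with a log2 ratio of -1.33 (-1.41 to -1.24). Both rod subunits were thus lower in Tet tcKO, and Cnga1 by more than Cngb1.

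Cnga3, the pore-forming cone subunit, was sparse in both libraries, with 52 UMIs in Cre- against 224 in Tet tcKO. That is 4.52 CPM (3.37 to 5.92) and 13.5 CPM (11.8 to 15.4), with a log2 ratio of 1.58 (1.14 to 2.04). Cngb3, the modulatory cone subunit, gave 2636 UMIs in Cre- against 31675 in Tet tcKO. Its level was 229.0 CPM (220.4 to 237.9) in Cre- and 1909 CPM (1888 to 1930) in Tet tcKO, which is 8.34-fold higher with a log2 ratio of 3.06 (3.00 to 3.12). Counting each gene once per nucleus, so that many UMIs in a nucleus weigh as 1, left a log2 ratio of 1.13 for Cngb3. Both cone subunits were higher in Tet tcKO, and the counting intervals of the libraries did not overlap for any of the 4 genes.

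Differences of 2-fold or more were counted among the 11158 genes with at least 10 CPM in 1 or both libraries, a filter that all 4 members passed over all nuclei. Of these genes 3.18% were 2-fold or more higher in Tet tcKO and 2.48% lower, and the members gave 2 higher and 2 lower. The members were chosen on this contrast, so their count is no result. Cngb3 ranked 21 from the highest log2 ratio and Cnga3 111, and Cnga1 ranked 18 from the lowest and Cngb1 154. The median log2 ratio of the 11158 genes was 0.15.

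The annotated rod and cone names divide the libraries by genotype: the Cre- library held 5214 rod-annotated and 265 cone-annotated nuclei, and the Tet tcKO library 6 and 3225. The cone-annotated cluster 11, which holds 264 of the Cre- cone-annotated nuclei, had 10815 CPM of rod markers and 1437 CPM of cone markers, close to the 8894 and 1228 CPM of all Cre- rods and cones. Rod clusters 32 and 36 had more markers of another class (RGC and cone) than rod markers among their 10 leading genes, and cluster 40 (RGC) did where genes were counted once per nucleus. Rods and cones were therefore pooled, and without these 3 clusters the log2 ratios of the pool were -1.86 for Cnga1, -1.06 for Cngb1, 1.62 for Cnga3 and 3.13 for Cngb3. In the pool Cnga1 was 939.6 CPM in Cre- and 265.9 in Tet tcKO, with a log2 ratio of -1.82 (-1.89 to -1.75). Cngb1 was 336.5 and 166.0 CPM, with a log2 ratio of -1.02 (-1.12 to -0.92). Cnga3 had 34 and 112 UMIs, or 4.49 and 15.1 CPM, with a log2 ratio of 1.75 (1.19 to 2.35). Cngb3 was 235.8 and 2041 CPM, with a log2 ratio of 3.11 (3.04 to 3.19), or 1.14 with each gene counted once per nucleus. Among the 11377 genes at 10 CPM or more in the pool, 6.67% were 2-fold or more higher and 2.58% lower, and the median log2 ratio was 0.23.

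**Figure D1:**
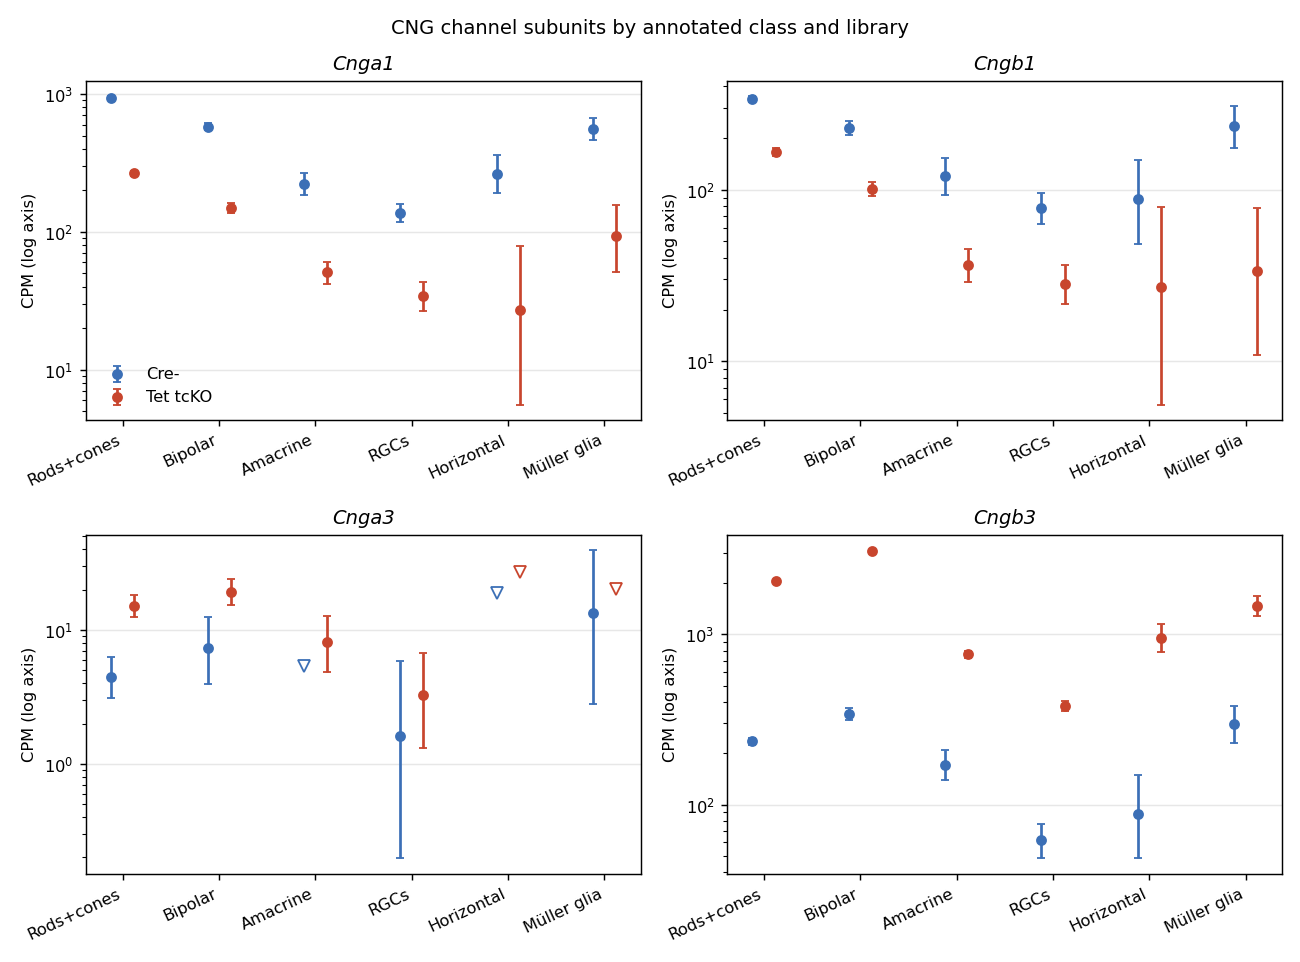
Level of each member in CPM on a log axis (vertical) in annotated classes (horizontal, rods and cones pooled) of the Cre- and Tet tcKO libraries. Points are sums over nuclei, bars are 95% Poisson intervals that cover counting error only, and open triangles mark the level that a count of 0 allows. Cnga1 and Cngb1 were lower and Cngb3 was higher in Tet tcKO in the pooled rods and cones and in amacrine, RGC, horizontal and Müller nuclei, with overlapping intervals for Cngb1 in horizontal nuclei, while most Cnga3 values rest on few UMIs. Bipolar values are shown for each library and not compared.

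Amacrine and retinal ganglion cells (RGCs) have no outer segment and served as the background for the photoreceptor genes. In amacrine nuclei Cnga1 was 223.8 CPM in Cre- and 50.8 in Tet tcKO, and Cngb1 was 119.9 and 36.3 CPM. Cngb3 was 171.9 CPM in Cre- amacrine nuclei and 762.9 in Tet tcKO, with a log2 ratio of 2.15, or 1.34 with each gene counted once per nucleus. Cnga3 had 0 UMIs in Cre- amacrine nuclei, which allows up to 5.37 CPM, and 19 UMIs or 8.11 CPM (4.88 to 12.7) in Tet tcKO, an interval that reaches below that limit. In RGC nuclei Cnga1 was 137.4 and 34.2 CPM, Cngb1 was 78.0 and 28.1 CPM, and Cngb3 was 61.8 and 377.9 CPM. RGC nuclei held 2 and 7 UMIs of Cnga3. The rod subunits were lower and Cngb3 higher in Tet tcKO in both classes, so the direction seen in photoreceptors was also present in nuclei that should lack the channel. The share of genes at 10 CPM or more that were 2-fold higher was 6.44% in amacrine and 3.53% in RGC nuclei, and the share lower was 6.44% and 3.2%. Cnga3 did not reach 10 CPM in either class, and of the other members 1 was higher and 2 were lower by that margin in each class.

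Cngb3 levels in Cre- ran from 338.7 CPM (312.1 to 367.0) in bipolar-annotated nuclei through 297.0 (229.7 to 377.9) in Müller glia, 236.6 (207.8 to 268.2) in cone-annotated and 235.6 (224.0 to 247.7) in rod-annotated nuclei to 171.9 (139.2 to 209.9) in amacrine, 88.4 (48.3 to 148.4) in horizontal and 61.8 (48.7 to 77.3) in RGC nuclei. Each of these intervals overlapped that of the class next to it other than rod-annotated and amacrine nuclei. The Müller interval also reached over the rod-annotated one and the cone-annotated interval reached the amacrine one, so the middle of this order is not resolved. In Tet tcKO the order was bipolar at 3066 CPM (3015 to 3118), cones at 2043 (2010 to 2076), Müller glia at 1474 (1286 to 1682), horizontal cells at 954.7 (781.7 to 1155), amacrine cells at 762.9 (727.9 to 799.1) and RGCs at 377.9 (352.2 to 404.9). Of these neighbours only the horizontal and amacrine intervals overlapped. The 6 rod-annotated Tet tcKO nuclei held 4 UMIs of Cngb3. The cone channel's modulatory subunit was thus highest in nuclei annotated as bipolar in both libraries, in Cre- with an interval that overlapped that of Müller glia.

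Cnga1 followed another order. In Cre- it was 1077 CPM in cone-annotated and 917.9 CPM in rod-annotated nuclei, 581.1 CPM in bipolar and 558.1 CPM in Müller nuclei, 265.3 CPM in horizontal, 223.8 CPM in amacrine and 137.4 CPM in RGC nuclei. In Tet tcKO it was 264.8 CPM in cone-annotated, 149.1 CPM in bipolar and 93.8 CPM in Müller nuclei. Cngb1 was likewise highest in the annotated photoreceptors, at 377.2 CPM in cone-annotated and 330.1 CPM in rod-annotated Cre- nuclei and 165.8 CPM in cone-annotated Tet tcKO nuclei. Cnga3 was 4.28 CPM in Cre- rods, 7.36 CPM in Cre- bipolar nuclei (13 UMIs), 15.1 CPM in Tet tcKO cones and 19.3 CPM in Tet tcKO bipolar nuclei (86 UMIs), and in each library the interval of the bipolar value overlapped that of the annotated photoreceptors.

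A Cre- cluster of 22 rod-annotated nuclei, cluster 45, had the highest rod marker level of the Cre- clusters of that size or larger, 47255 CPM. Its Cnga1 level was 3417 CPM (2632 to 4364) and its Cngb1 level 1548 CPM (1037 to 2224). It held 0 UMIs of Cngb3, which allows up to 160.2 CPM by the floor of 3 counts and up to 197.0 CPM by the exact interval. It also held 0 of Cnga3. The 14 rod-annotated Cre- clusters with at least 50 nuclei had 187.9 to 281.5 CPM of Cngb3, a range that the exact limit of cluster 45 reaches. Cluster 45 was therefore the place in the Cre- library where the rod subunits were high and Cngb3 was not detectable at this depth, which is only 18728 UMIs.

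Most clusters held nuclei of mainly 1 library. The libraries could be set side by side within a cluster in 9 clusters with at least 20 nuclei from each, all of amacrine, RGC, horizontal or Müller annotation. Cngb3 was higher in Tet tcKO in 9 of 9, with log2 ratios from 1.71 to 3.85 and a median of 2.82, and every interval lay above 0. The smallest ratio was in amacrine cluster 27, at 199.8 CPM in Cre- and 651.8 in Tet tcKO. The largest was in amacrine cluster 23, with 3 UMIs in Cre- and 717 in Tet tcKO (log2 ratio 3.85, interval 2.29 to 6.13). Cnga1 was lower in Tet tcKO in 9 of 9 of these clusters, with 6 intervals below 0. Cngb1 was lower in 9 of 9 with 2 intervals below 0, and 2 of the 9 Tet tcKO values were 0 UMIs. Cnga3 had too few UMIs for a comparison within clusters.

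**Figure D2:**
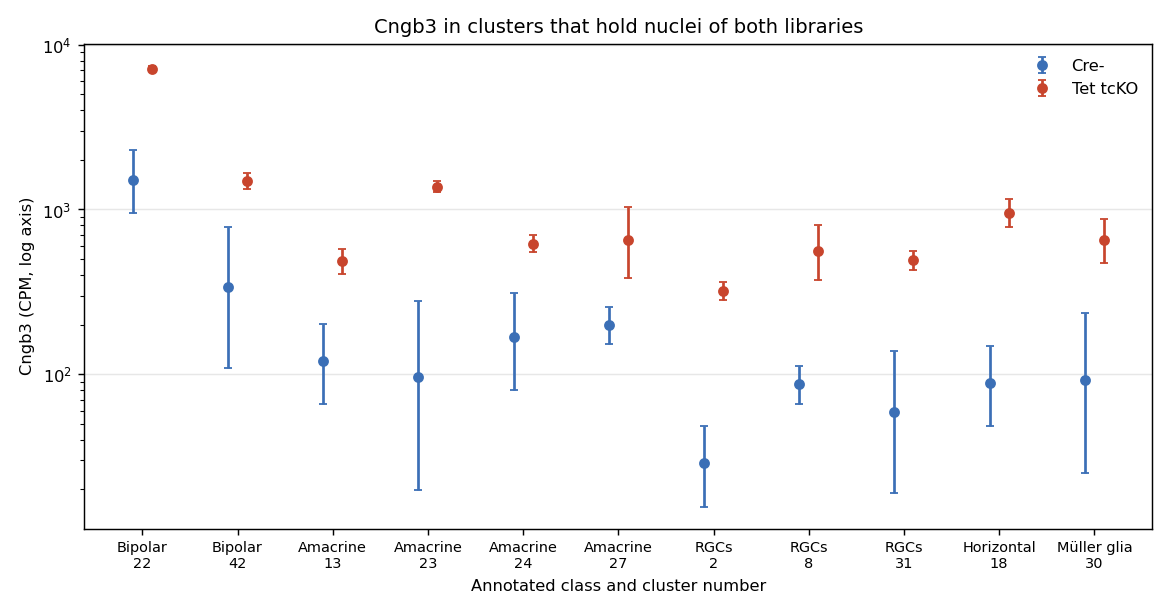
Cngb3 in CPM on a log axis (vertical) in each library, for the 9 clusters with at least 20 nuclei of each library and for bipolar clusters 22 and 42, which hold 8 and 14 Cre- nuclei (horizontal, with class and cluster number). Bars are 95% Poisson intervals that cover counting error only. The Tet tcKO point lies above the Cre- point in every cluster drawn, and both libraries are highest in cluster 22.

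The bipolar-annotated nuclei held 598 of the Cngb3 UMIs of Cre- and 13632 of those of Tet tcKO. In Tet tcKO that was 43.04% of the gene's UMIs in 26.8% of all UMIs and 24.4% of nuclei. In Cre- it was 22.7% of the gene's UMIs in 15.3% of all UMIs and 9.16% of nuclei. Among 9 bipolar-annotated clusters, cluster 35 had more markers of another class than bipolar markers among its 10 leading genes. Clusters 22, 39, 41 and 43 passed this check with no marker of any class among theirs. In Tet tcKO, clusters 35 and 39, of 409 nuclei each, had 2897 and 2747 CPM of bipolar markers. That was near the 2646 CPM of the cone-annotated nuclei of that library. Bipolar values are therefore given for each library with no ratio between genotypes for the class, and the genotypes were compared by cluster number. Cngb3 was itself among the 10 leading genes of bipolar clusters 22, 35, 39 and 41, which describes how these clusters stand apart and is no separate finding.

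Cngb3 varied 4.80-fold among the 6 Tet tcKO bipolar clusters with at least 50 nuclei. Cluster 22 had the highest level, 7153 CPM in 214 nuclei, followed by cluster 41 at 3947 CPM, cluster 35 at 2834 CPM, cluster 39 at 2637 CPM, cluster 43 at 2364 CPM and cluster 42 at 1490 CPM in 148 nuclei. The 8 cone-annotated clusters of the same library ranged from 1643 CPM in cluster 48 to 2963 CPM in cluster 52. Clusters 22 and 41 lay above all of the cone-annotated clusters and cluster 42 below all of them. In Cre- the bipolar clusters 3, 4 and 7 had 291.4, 462.7 and 259.9 CPM.

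Cluster 22 was annotated as bipolar against its marker levels. In Tet tcKO it had 5509 CPM of cone markers, more than any other cluster with at least 50 nuclei, and 1551 CPM of bipolar markers, the lowest of these 6 bipolar clusters. Its 10 leading genes included Cngb3, Poteg and Lrit3, as did those of bipolar clusters 35 and 41. None of the 12 bipolar markers was among them, which was also so for bipolar clusters 35, 39, 41 and 43. The 8 Cre- nuclei of cluster 22 had 8192 CPM of cone markers and 22 UMIs of Cngb3, a level of 1515 CPM (949.2 to 2293). The Tet tcKO level in this cluster was 4.72-fold that of Cre- (log2 ratio 2.24, interval 1.64 to 2.92). Cnga3 was also highest here among the Tet tcKO clusters with at least 50 nuclei, at 40.96 CPM from 16 UMIs, against 0 UMIs in the Cre- nuclei of the cluster. Cnga1 was 179.2 CPM in its Tet tcKO nuclei and 1033 CPM in its Cre- nuclei.

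Among the same 6 clusters, cluster 42 had the strongest bipolar markers, 8949 CPM in Tet tcKO. It had 3007 CPM of the ON bipolar genes Grm6, Trpm1, Isl1, Nyx and Gpr179. The rod bipolar genes Prkca and Car8 had 2998 CPM in it, and the OFF bipolar genes Grik1 and Tacr3 had 2426 CPM. Grm6 and Trpm1 are the receptor and channel of the ON response, and Grik1 is a kainate receptor of OFF bipolar cells. The Cngb3 level of cluster 42, 1490 CPM, was the lowest of the 6, and its Cnga3 count was 1 UMI. The 14 Cre- nuclei of cluster 42 held 5 UMIs of Cngb3, or 337.0 CPM (109.4 to 786.3), so the Tet tcKO level was 4.42-fold higher (log2 ratio 2.14, interval 0.91 to 3.78). Of these 6 clusters the one with the most bipolar markers thus had the least Cngb3, and more than its few Cre- nuclei. The 5 Tet tcKO nuclei of bipolar cluster 7 had more bipolar markers, 17812 CPM, and 4 UMIs of Cngb3, or 593.7 CPM (161.8 to 1520).

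Summed cone and rod markers moved with Cngb3 across these clusters. In Tet tcKO the order of the 6 bipolar clusters by cone markers (5509, 3466, 2353, 2192, 1848 and 1292 CPM from cluster 22 to cluster 42) was the same as their order by Cngb3, a Spearman coefficient of 1 over 6 clusters of 1 library that share depth and total. Against bipolar markers the coefficient was -0.77. Per 1000 UMIs of cone markers these clusters held 1139 to 1298 UMIs of Cngb3, a narrow range, while the cone-annotated clusters held 343.0 (cluster 48) to 1386 (cluster 52). Amacrine clusters held 806.6 to 1228 and RGC clusters 661.9 to 699.5. The part of cone transcripts from other nuclei in the bipolar values was not tested.

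**Figure D3:**
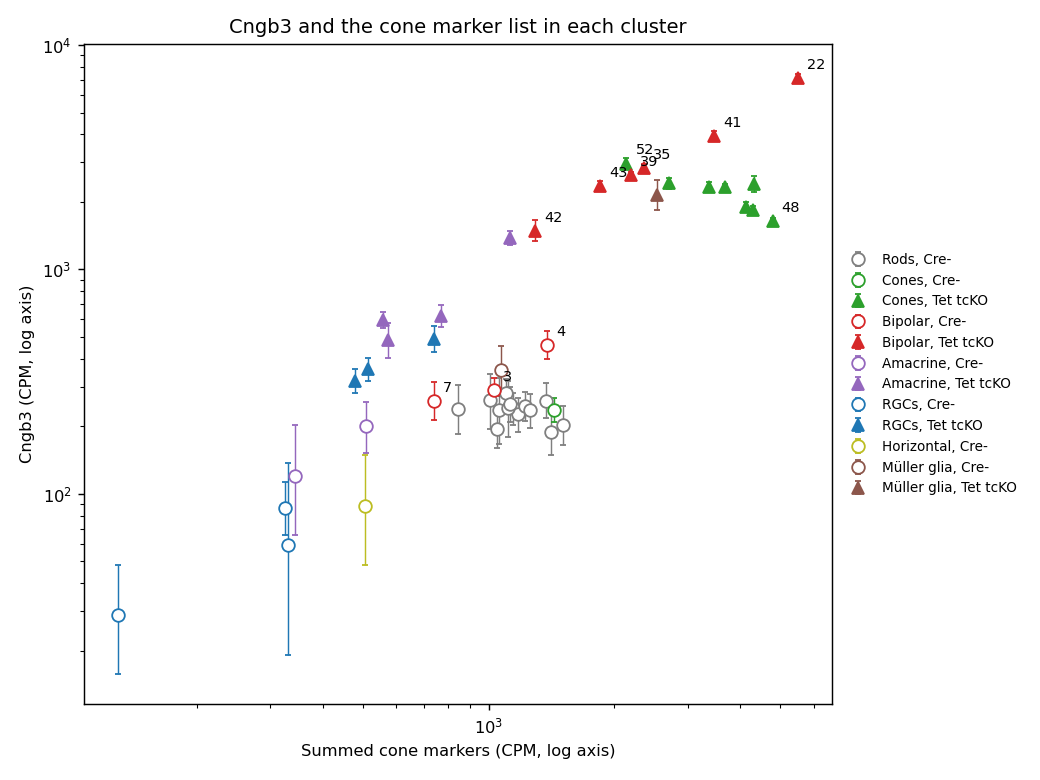
Cngb3 (vertical) against the summed 9 cone markers (horizontal), both in CPM on log axes, for each cluster with at least 50 nuclei in a library. Open circles are Cre- and filled triangles Tet tcKO clusters, colours are annotated classes, bars are 95% Poisson intervals, and numbers mark the bipolar clusters and cone clusters 48 and 52. The 6 Tet tcKO bipolar clusters climb together from 1490 CPM in cluster 42 to 7153 CPM in cluster 22. No Cre- cluster drawn has more than 1505 CPM of cone markers, so of these 6 bipolar clusters only cluster 42 can be read against Cre- clusters at a like marker level.

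The ratio of a member to the marker list of its own photoreceptor differed between the libraries and in the same direction in classes with few such transcripts. Over all nuclei, Cre- held 107.2 UMIs of Cnga1 per 1000 UMIs of rod markers and Tet tcKO held 51.2. The values were 105.6 and 51.1 in rods and cones, 104.4 and 47.5 in amacrine nuclei and 87.8 and 46.6 in RGC nuclei. Cngb1 changed less against the same markers, from 39.7 in Cre- to 33.0 in Tet tcKO over all nuclei. Cngb3 per 1000 UMIs of cone markers was 217.8 in Cre- and 721.1 in Tet tcKO over all nuclei, 192.0 and 512.5 in rods and cones, 432.4 and 1046 in amacrine nuclei and 250.8 and 681.3 in RGC nuclei. Cnga3 stayed near 4.30 and 5.10 per 1000 over all nuclei, with overlapping intervals. Against the summed lists, Cngb3 was thus higher in Tet tcKO and Cnga1 lower, whereas the Cnga3 difference was of the size of the cone sum's own. The genes of a list differed among themselves. In rods and cones the rod marker Gngt1 was 966.1 and 967.0 CPM, and Slc24a1 had a log2 ratio of -1.78, near the -1.82 of Cnga1. The cone markers Pde6h and Gngt2 had -0.95 and 2.76. These comparisons therefore hold for the sums and not for each marker.

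Within the channel pairs the balance of UMIs shifted as well. Of the UMIs of Cnga1 and Cngb1 together, Cnga1 made up 73.0% in Cre- (72.2 to 73.8) and 60.8% in Tet tcKO (59.4 to 62.2). In rods and cones the shares were 73.6% and 61.6%. Of the UMIs of Cnga3 and Cngb3, Cnga3 made up 1.93% in Cre- (1.45 to 2.53) and 0.702% in Tet tcKO (0.614 to 0.800). These shares are of UMIs and are not corrected for gene length or for where in the gene reads fall, so they compare libraries and not the subunits of a channel.

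To compare nuclei at equal depth, each nucleus was thinned to 500 UMIs, which left out 0 nuclei. In Cre-, Cngb3 was then found in 11.3% of rod- and cone-annotated nuclei (10.5 to 12.2), 15.3% of bipolar nuclei (12.6 to 18.2), 7.44% of amacrine nuclei (5.08 to 10.5), 3.53% of RGC nuclei (2.17 to 5.40), 2.22% of horizontal nuclei (0.270 to 7.80) and 11.8% of Müller nuclei (7.03 to 18.2). In Tet tcKO it was found in 66.4% of rods and cones (64.7 to 68.0), 70.1% of bipolar nuclei (67.8 to 72.3), 27.9% of amacrine nuclei (25.2 to 30.7), 18.0% of RGC nuclei (15.3 to 21.1), 27.0% of the 37 horizontal nuclei (13.8 to 44.1) and 40.2% of the 102 Müller nuclei (30.6 to 50.4). Without thinning the bipolar shares were 43.8% in Cre- and 94.7% in Tet tcKO. Cngb3 was thus found in most bipolar-annotated nuclei of Tet tcKO, above the share in the amacrine, RGC, horizontal and Müller nuclei of that library at equal depth. The Cre- bipolar share was not separated from that of Cre- Müller nuclei.

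**Figure D4:**
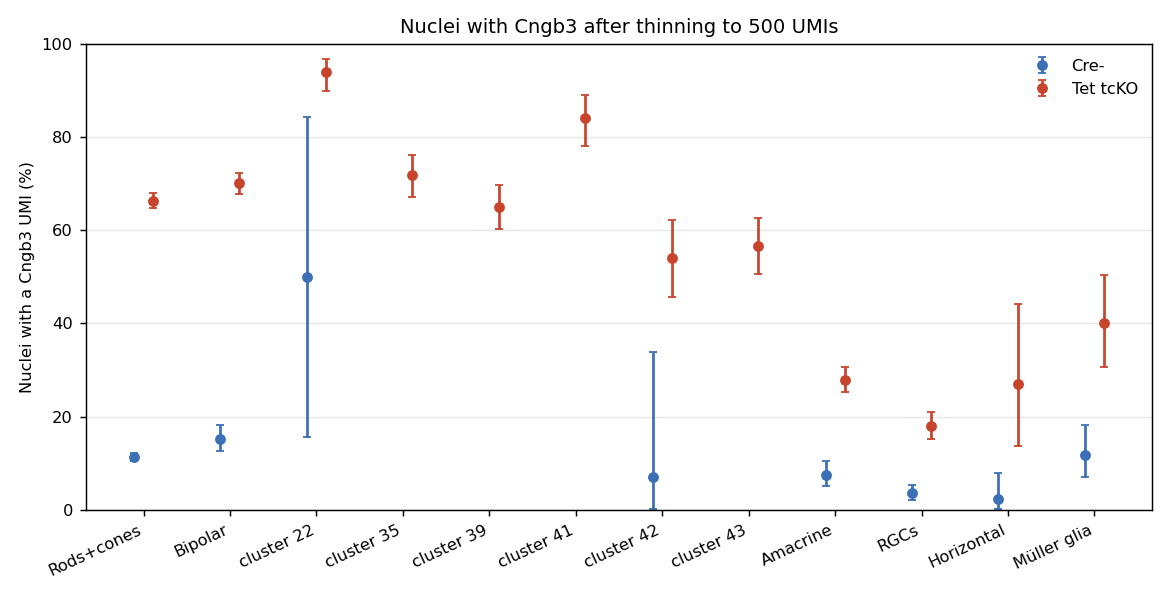
Share of nuclei with at least 1 UMI of Cngb3 (vertical, percent) after each nucleus was thinned to 500 UMIs, by class and bipolar cluster (horizontal) for Cre- and Tet tcKO. Bars are 95% Clopper-Pearson intervals that cover counting error only, and a library is drawn for a cluster only where the share was computed. In Tet tcKO the share runs from 18.0% in RGCs to 93.9% in cluster 22, with 54.1% in cluster 42 and 40.2% in Müller glia.

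Among the Tet tcKO bipolar clusters the thinned share was 93.9% in cluster 22, 84.0% in cluster 41, 71.9% in cluster 35, 65.0% in cluster 39, 56.7% in cluster 43 and 54.1% in cluster 42 (45.7 to 62.3), whose interval reached that of Müller nuclei. In Cre- it was 15.3% in cluster 3, 19.4% in cluster 4 and 12.2% in cluster 7. In the thinned counts, Tet tcKO bipolar nuclei with a cone marker UMI carried Cngb3 in 76.1% of 1039 nuclei and those without in 59.8% of 610. Nuclei with no UMI of any cone or rod marker carried it in 117 of 227 in Tet tcKO (51.5%, 44.8 to 58.2) and in 9 of 70 in Cre- (12.9%, 6.05 to 23.0). In cluster 42 it was 20 of 52 such nuclei (38.5%, 25.3 to 53.0). The Tet tcKO interval without a photoreceptor marker UMI (44.8 to 58.2) lay above those of all amacrine (25.2 to 30.7), RGC (15.3 to 21.1) and horizontal nuclei (13.8 to 44.1). It overlapped that of all Müller nuclei of the library (30.6 to 50.4). Cluster 42's interval overlapped the Müller one and also reached the amacrine value. The nuclei of these other classes were not restricted to those without marker UMIs, so the shares are not read above the background.

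The Cngb3 UMIs of bipolar nuclei did not rest on a few nuclei. The median Tet tcKO bipolar nucleus held 6 UMIs of Cngb3, and the median nucleus of cluster 22 held 10. The highest nucleus, in cluster 22, held 100 of its 8232 UMIs, which was 0.734% of the Cngb3 UMIs of Tet tcKO bipolar nuclei. The median Cre- bipolar nucleus held 0.

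The thinned share with Cnga1 was 36.5% of Cre- and 12.6% of Tet tcKO rods and cones, and 86.4% of the 22 nuclei of cluster 45. Cngb1 was found in 15.3% and 7.89% of rods and cones and in 72.7% of cluster 45. Cngb3 was found in 0 of the 22 nuclei of cluster 45, which allows up to 13.6% of nuclei with a UMI at this depth by the floor of 3 counts and says nothing of nuclei that express it below that depth. Cnga3 was found in 0.201% of Cre- and 0.681% of Tet tcKO rods and cones, and its highest share in a Tet tcKO bipolar cluster was 3.27%, in cluster 22. At this depth the subunits of a channel were seen together in a nucleus about as often as 2 independent genes would be. Cnga1 and Cngb1 occurred together in 5.49% of Cre- rods and cones, where independence gives 5.57%. Cnga3 and Cngb3 occurred together in 16 Tet tcKO rods and cones, or 0.495% (0.283 to 0.803), where independence gives 0.452%. The rod subunit Cnga1 and the cone subunit Cngb3 occurred together in 8.11% of Tet tcKO rods and cones, where independence gives 8.34%. In Tet tcKO amacrine nuclei, the background, Cnga1 and Cngb3 occurred together in 1.15%, where independence gives 0.776%. Nuclei that all carry both genes would also give shares near independence at this depth. The shares are therefore not read for or against expression of both subunits by the same cell.

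Of the phototransduction genes around the channel, 23 are described here and 21 reached 10 CPM in 1 or both libraries. Their values share a contrast with the members. In rods and cones 5 were 2-fold or more higher in Tet tcKO, 9 were lower and 7 lay within 2-fold, with a median log2 ratio of -0.83 against 0.23 for all genes. The genes upstream of the channel split by photoreceptor type. The cone transducin subunits Gnat2 (84.7 and 514.2 CPM, log2 ratio 2.60), Gngt2 (47.1 and 319.2, 2.76) and Gnb3 (304.1 and 886.3, 1.54) were higher, as was the cone phosphodiesterase Pde6c (84.1 and 217.3, 1.37). The rod transducin subunits Gnat1 (-1.19) and Gnb1 (-1.23) and the rod phosphodiesterase subunits Pde6a (-1.56), Pde6b (-1.29) and Pde6g (-1.26) were lower by log2 ratio. The rod subunit Gngt1 had the same level in both libraries, at 966.1 and 967.0 CPM, and the cone inhibitory subunit Pde6h was 39.7 and 20.5 CPM, opposite in sign to the other cone genes.

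Genes that make cyclic GMP and those that extrude the calcium entering through the channel differed in direction among themselves. The guanylate cyclase Gucy2f (log2 ratio -1.32) and the cyclase activators Guca1a (-1.02) and Guca1b (-1.19) were lower in rods and cones, and the cyclase Gucy2e was 143.0 and 151.2 CPM. The exchanger Slc24a1, which rods use beside their CNG channel, was 484.2 and 140.9 CPM (-1.78). The exchanger Slc24a2 was 134.1 and 269.8 CPM (1.01), and the exchanger Slc24a4 was 106.9 and 96.6 CPM (-0.15). The deactivation genes Rgs9 and Rgs9bp had 684.7 and 685.7 CPM and 175.8 and 175.6 CPM, and Gnb5 had a log2 ratio of -0.83. The olfactory CNG subunits Cnga2 and Cnga4 were below 1 CPM in both libraries. The log2 ratio of Cngb3, 3.11, was higher than that of any of the 21 genes, and that of Cnga1, -1.82, was lower than any of them. The Cnga1 interval (-1.89 to -1.75) overlapped that of Slc24a1 (-1.88 to -1.68), so the order of these genes is not resolved. Over all nuclei 4 of the 21 were higher, 11 lower and 6 within 2-fold, with a median of -1.04 against 0.15.

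**Figure D5:**
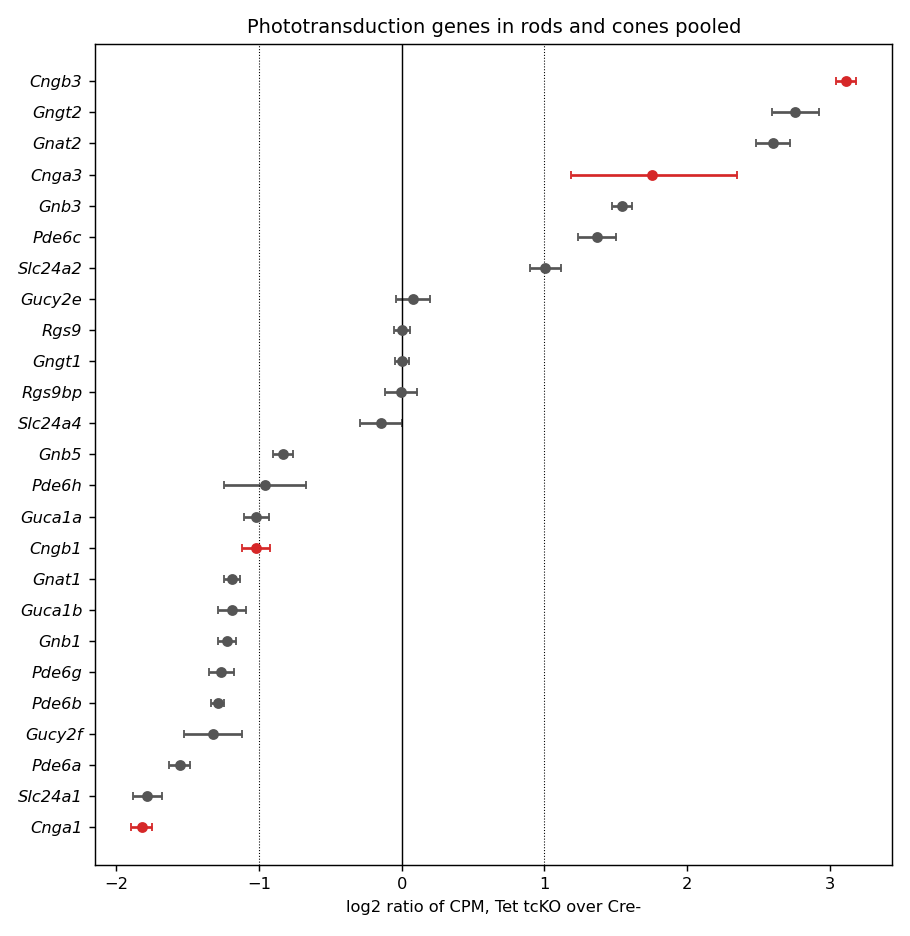
Log2 ratio of CPM, Tet tcKO over Cre- (horizontal), in rods and cones pooled for the 21 phototransduction genes at 10 CPM or more (grey) and the 4 members (red). Bars are 95% conditional intervals that cover counting error only, and dotted lines mark 2-fold. Cngb3 at 3.11 and Cnga1 at -1.82 are the ends of the range, and the Cnga1 interval overlaps that of Slc24a1.

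Genes with the pattern most like a member were found by Pearson correlation of log2(CPM + 1) over 47 units, each 1 cluster in 1 library with at least 50 nuclei, among 11158 genes. The units share 2 libraries and their depth, so the coefficients are descriptions. Cnga1 was most like Ybx3 (0.99), Pde6b (0.98) and Pde6a (0.98), and Cngb1 was most like Tlcd3b (0.98), Ybx3 (0.97) and Pde6b (0.97). Cngb3 was most like Jam3 (0.94), Mylk (0.93) and 4930447C04Rik (0.92), and Cnga3 was most like Smpdl3a (0.76), Gm12146 (0.74) and Ifitm10 (0.74). Cnga1 and Cngb1 had 0.97 with each other, and Cnga3 and Cngb3 had 0.67. Cnga1 and Cngb3 had -0.28 over all 47 units, but 0.81 over the 25 Cre- units and 0.80 over the 22 Tet tcKO units. The coefficient was thus positive within each library and negative over both. The clusters with the highest levels differed: of the Cre- units Cnga1 was highest in rod cluster 10 (1103 CPM) and Cngb3 in bipolar cluster 4 (462.7 CPM), and of the Tet tcKO units Cnga1 was highest in cone cluster 54 (294.7 CPM) and Cngb3 in bipolar cluster 22.

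The members' neighbours gave no shared shift. Within 500 kb on either side, 4 genes near Cnga1 at 10 CPM or more had log2 ratios from -0.50 to 0.59 over all nuclei, 7 near Cnga3 from -0.36 to 0.80 and 5 near Cngb3 from -0.41 to 0.53. Among them Cpne3 and Rmdn1, the closest to Cngb3, were 29.7 and 31.5 CPM, and 88.0 and 86.7 CPM. Of 12 genes near Cngb1, 1 was 2-fold or more lower, Kifc3 at 76.97 and 36.2 CPM (-1.09), and it was named after its value was seen.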

How the data were processed

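Per the labels, nuclei of whole retina were captured with a PIPseq 3′ kit, and reads were processed with pipseeker 3.3.0 and aligned to GRCm39. Per the study's methods, ambient RNA was removed with CellBender and nuclei were filtered and annotated in Monocle3. Which gene annotation lay behind the counts was not stated by the sources read here. The authors deposited the UMI counts that resulted, as whole numbers for every gene in every nucleus, with counts of transcripts per nucleus, the cluster and class of each nucleus, and a gene table that gives the authors' signal, a mean per 10000, and nuclei per gene. The authors' mitochondrial percent and the size factor, a ratio deposited with each nucleus, were not used.

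UMIs were summed per population and library and divided by the sum over genes (CPM). Ratios set Tet tcKO against Cre- on the log2 scale, and a 0 was replaced by 3 counts. With 1 library per genotype no test between genotypes was made and no p-value is given. Intervals are exact at 95% (Poisson, conditional for ratios, Clopper-Pearson for shares) and cover counting error only. No doublet removal is stated. Scrublet in scanpy 1.11.5 called 0 doublets, so its calls were not used, and leaving out the highest scores served as an alternative. That alternative left out 502 Cre- and 418 Tet tcKO nuclei. It kept 645 of 674 bipolar-annotated nuclei in Cre- and 1417 of 1649 in Tet tcKO. High scores were thus more frequent among the bipolar-annotated nuclei of Tet tcKO than among those of Cre-, and the cause was not tested. Marker lists of 12 cell types checked the annotation, and no member is in them. The members, gene lists and markers were chosen with earlier results of these data known. Named genes are the members, a fixed phototransduction list, bipolar subtype genes and the 3 genes most like each member. Some genes of the phototransduction list are not reported here and were left out of its counts and medians. Steps were tested on simulated data. Python 3.11.15, numpy 2.4.6, scipy 1.17.1, pandas 2.3.3 and matplotlib 3.10.9 were used.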

Additional observations from a re-analysis of the deposited data

Results flagged for a closer look

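The deposited gene table counts more nuclei with each member than the 2 deposited matrices hold, which is a signal outside the data compared here. The excess was 1064 nuclei for Cnga1 (7402 in the table and 6338 in the matrices), 701 for Cngb1 (4626 and 3925), 47 for Cnga3 (322 and 275) and 1003 for Cngb3 (8833 and 7830). The table's means per 10000 equalled those of the matrices for all 4 members in both libraries, for example 2.28 and 19.8 for Cngb3. Which nuclei the table counted beyond those of the matrices was not stated by the sources read here.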

How the results depend on the processing

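In all, 20 values were computed again under the alternatives, which gave 150 values: 114 stayed within the counting interval of the reported value and 36 moved beyond it. Of the 124 log2 ratios among the 150 values, 0 changed sign. The others were CPM and shares of nuclei, which have no sign to change. TMM and median-of-ratios scaling shifted every log2 ratio down, by 0.10 and 0.11. Over all nuclei they gave -2.23 and -2.23 for Cnga1, -1.43 and -1.43 for Cngb1 and 2.96 and 2.95 for Cngb3, and in rods and cones -1.93 and -1.93, -1.12 and -1.13, and 3.01 and 3.01. Counting each gene once per nucleus gave smaller differences for 3 members and slightly larger ones for Cnga3 (1.64 over all nuclei): -1.54 for Cnga1, -1.18 for Cngb1 and 1.13 for Cngb3 over all nuclei, -1.32 for Cnga1 and 1.14 for Cngb3 in rods and cones, -1.67 and 1.34 in amacrine nuclei, and 1.96 for Cngb3 in RGC nuclei. Rods and cones without the clusters that failed the marker check, chosen after seeing the data, stayed within the intervals. With Cre- class shares in both libraries Cnga1 was -1.86 and Cngb1 -1.08 over all nuclei.

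Cngb3 in bipolar-annotated nuclei was 282.2 CPM in Cre- and 576.9 in Tet tcKO with each gene once per nucleus, 407.5 and 938.3 CPM in the 10 and 15 nuclei without any rod or cone marker UMI at full depth, and 3144 CPM in Tet tcKO without the highest doublet scores. Without cluster 22, an alternative chosen after seeing the data, it was 2673 CPM in Tet tcKO, and the log2 ratio over all nuclei was 2.97. The share of bipolar nuclei with a Cngb3 UMI was 43.8% in Cre- and 94.7% in Tet tcKO without thinning, 26.0% and 87.1% at 1000 UMIs, 10.0% (1 of 10) and 46.7% (7 of 15) in the nuclei without marker UMIs, and 66.6% in Tet tcKO without cluster 22. The causes of these shifts were not tested.

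No paired analysis was possible because there was 1 library per genotype, and for the same reason no replicate was left out. The spread between animals and the effect of genotype cannot be told apart from that of library preparation. Depth limits Cnga3 most, with 52 and 224 UMIs.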
